A study of Mus musculus with 8 samples.

Results

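Chemokines are small signalling proteins, most of them secreted, that bind G protein-coupled receptors and steer the migration and positioning of blood cells. The mouse genes of this family were taken from the array by name: every gene whose name in the scanner files starts with Ccl, Cxcl, Ccr or Cxcr and a digit, or with Cx3c, together with Xcl1 and Xcr1. The rule used names only and no measured value. It found 54 genes among the 27337 names on the array, 35 ligands and 19 receptors, read by 70 probes. Probes had to read well above background on 2 arrays or more to be used, and each gene was represented by the brightest such probe. Of the 54 genes, 35 had such a probe (19 ligands and 16 receptors), and 31 of these were well above background on all 8 arrays. Receptor genes mark where a cell can go, and ligand genes mark what it can attract: in the bone marrow Cxcl12 from stromal cells holds Cxcr4-positive B-cell progenitors in place, while Ccr7, Ccr9 and Cxcr5 guide lymphocytes to lymph node, thymus or gut, and B-cell follicle.

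The cells were Ebf1-/- progenitors of C57Bl/6 mouse fetal liver, enriched for c-Kit, and lack EBF1, a transcription factor needed for the B-lymphocyte programme. They were plated on OP9 cells, a mouse stromal line, with interleukin 7 at 5 ng/ml, Flt3 ligand at 10 ng/ml and stem cell factor at 10 ng/ml, and received a pMys-IRES-GFP retrovirus. This carried EBF1-H240A (3 arrays), wild-type EBF1 (EBF1wt, 3 arrays) or no insert (Empty, 2 arrays), and all 3 groups share the Ebf1 deletion, the feeder layer and the cytokines. GFP-positive cells were sorted 36 h after transduction, so that the proteins were introduced by a virus into cells that otherwise have none. In EBF1-H240A an alanine replaces a histidine, which is known to impair binding to CNOT3. That protein belongs to the CCR4-NOT complex, unrelated to the chemokine receptor Ccr4. RNA was hybridised to one-colour Agilent arrays. On each array 54.6% to 59.7% of probes read well above background, no spot was saturated (0), and arrays of a group correlated at r = 0.991 to 0.995 across genes. Kit, the receptor used for enrichment, was present on every array, with log2 signals of 9.29 to 9.64 with EBF1-H240A, 9.76 to 9.86 with EBF1wt, and 10.57 and 10.65 with Empty.

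Values are log2 of the processed signal after scaling each array to a common 75th percentile. They can be compared between arrays for 1 gene, not between genes. Differences are given with the standard error (SE) of a limma fit across 16310 genes and all 8 arrays, and a gene is called changed at a Benjamini-Hochberg adjusted p under 0.05. The labels do not say whether arrays of a group came from separate cultures, so the p-values rest on array-to-array spread that may be technical. The RNA came from bulk cells, in which more cells of a type and more RNA per cell cannot be told apart. Both comparisons with Empty use the same 2 Empty arrays, so their differences are set side by side and their likeness is not used as a result.

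With either EBF1 protein, the chemokine ligand genes that passed the test were higher than with the empty vector in all cases but Ccl25, and most receptor genes that passed were lower. With EBF1-H240A 22 of the 35 tested genes were called, 12 higher and 10 lower, a share of 62.9% where 44.6% of all genes tested were called (21.6% higher and 23.0% lower). With EBF1wt 22 were called as well, again 12 higher and 10 lower, where 38.4% of all genes were called (17.2% higher and 21.3% lower). Among the 19 ligands, 9 were higher and 1 lower with EBF1-H240A, and 10 were higher and 1 lower with EBF1wt. The median difference of the ligands from Empty was 0.59 with EBF1-H240A and 0.59 with EBF1wt. Of the 16 receptors, 3 were higher and 9 lower with EBF1-H240A, and 2 were higher and 9 lower with EBF1wt. Their median difference was -0.40 with EBF1-H240A and -0.59 with EBF1wt, while the median over all genes was 0 with EBF1-H240A and -0.04 with EBF1wt. The plot of the fitted differences from Empty shows the ligands mostly right of 0 and the receptors mostly left of it.

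**Figure D1:**
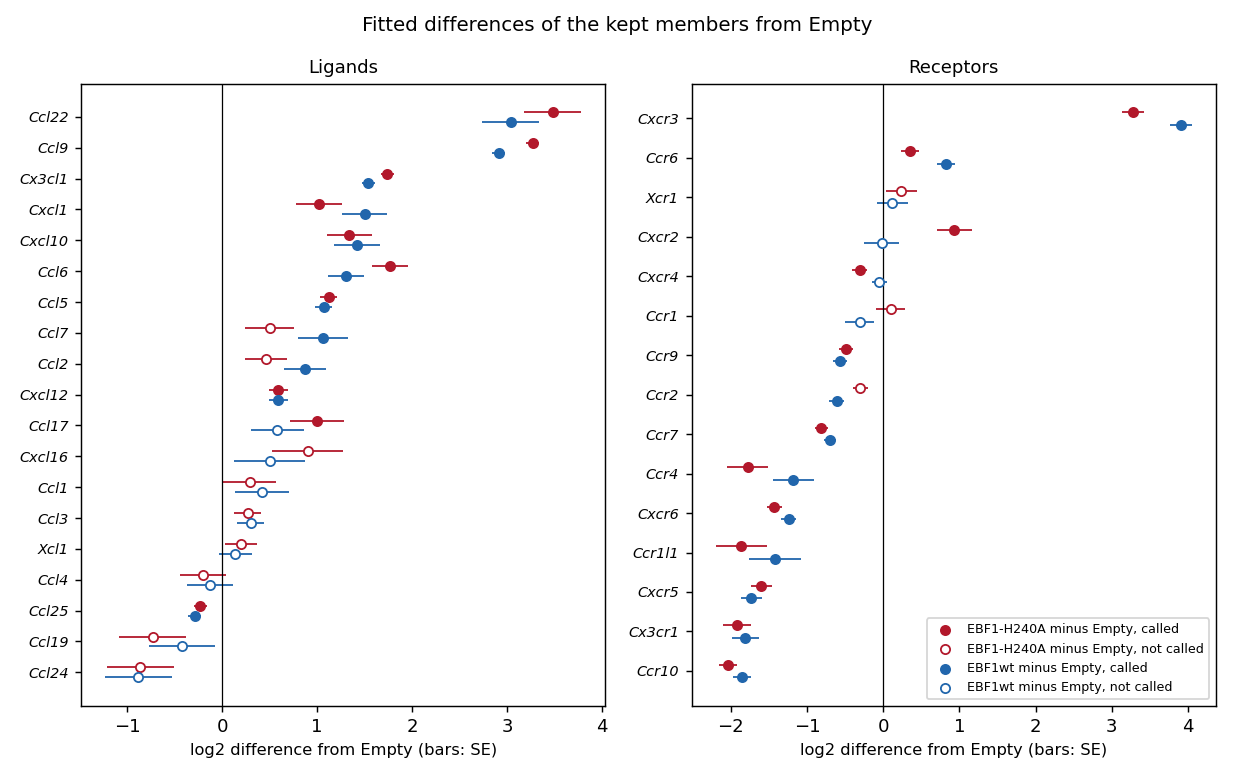
Fitted log2 differences from Empty for 34 of the 35 tested genes, ligands on the left and receptors on the right. Red points are EBF1-H240A minus Empty, blue points EBF1wt minus Empty, filled where called, and bars are 1 SE. Cxcr3 stands far right among the receptors, and Ccr10 and Cx3cr1 lie furthest left for both proteins.

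A difference of at least 2-fold was reached by 15 called genes in each comparison with Empty, where 10.0% of all genes with EBF1-H240A and 8.47% with EBF1wt were called at that size. In both, 8 of them were ligands and higher, 6 were receptors and lower, and Cxcr3 was the receptor that was higher. Over all genes, 6.64% were called at least 2-fold higher and 3.41% at least 2-fold lower with EBF1-H240A, and 5.67% at least 2-fold higher and 2.80% at least 2-fold lower with EBF1wt. Altogether 16 genes reached 2-fold in some comparison, 9 further genes were called with smaller differences, and 10 were called in none.

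Ccl9 codes for a CC chemokine of rodents that acts on Ccr1 and is made by myeloid cells and macrophages. Its log2 signal was 14.85, 14.72 and 14.78 with EBF1-H240A, 14.38, 14.45 and 14.43 with EBF1wt, and 11.46 and 11.56 with Empty. The 3 groups did not overlap, and all 6 arrays with an EBF1 protein lay far above both Empty arrays. The difference from Empty was 3.27 ± 0.07 (SE, 9.67-fold, adjusted p = 7.17e-07) with EBF1-H240A and 2.91 ± 0.07 (7.51-fold, adjusted p = 1.27e-06) with EBF1wt. In mm9, the build of the array annotation, the Ccl9 probe lies on chromosome 11 at 83388223 to 83388282, on the minus strand. Ccl6, its neighbour and another ligand of Ccr1, read 12.48, 12.06 and 12.52 with EBF1-H240A, 11.80, 11.89 and 11.96 with EBF1wt, and 10.34 and 10.83 with Empty. It was also higher on each of the 6 arrays than on either Empty array, by 1.77 ± 0.19 (adjusted p = 0.000432) with EBF1-H240A and 1.30 ± 0.19 (adjusted p = 0.00203) with EBF1wt.

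Ccl5, a ligand of Ccr1 that many lymphoid and myeloid cells release, read 16.67, 16.71 and 16.67 with EBF1-H240A, 16.52, 16.74 and 16.65 with EBF1wt, and 15.68 and 15.45 with Empty. Both groups with an EBF1 protein overlapped each other and lay above Empty, by 1.12 ± 0.09 (adjusted p = 0.00016) with EBF1-H240A and 1.07 ± 0.09 (adjusted p = 0.000232) with EBF1wt. The second Ccl5 probe gave 1.43 with EBF1-H240A and 1.30 with EBF1wt. Ccl5, Ccl9, Ccl6, Ccl3 and Ccl4 follow each other on chromosome 11, and Ccl3 and Ccl4 did not pass the test. Ccl3 differed from Empty by 0.27 ± 0.14 with EBF1-H240A (adjusted p = 0.16) and by 0.30 ± 0.14 with EBF1wt (adjusted p = 0.142). For Ccl4 the differences were -0.20 ± 0.24 (adjusted p = 0.552) with EBF1-H240A and -0.13 ± 0.24 (adjusted p = 0.711) with EBF1wt. Over all genes, 44.6% were called with EBF1-H240A and 38.4% with EBF1wt. Of 9 tested genes around these ligands, 2 were called higher and 1 lower with EBF1-H240A, and 3 higher and 1 lower with EBF1wt. Among them Heatr9, which adjoins Ccl5, was higher by 1.13 (adjusted p = 0.0269) with EBF1-H240A and 1.09 (adjusted p = 0.0349) with EBF1wt.

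The genes Ccl22, Cx3cl1 and Ccl17 form another group of neighbours, on chromosome 8. Cx3cl1 codes for fractalkine, which is anchored in the membrane and binds Cx3cr1. It read 10.34, 10.39 and 10.52 with EBF1-H240A, 10.19, 10.23 and 10.24 with EBF1wt, and 8.72 and 8.63 with Empty. No groups overlapped, and the difference from Empty was 1.74 ± 0.07 (3.34-fold, adjusted p = 8.45e-06) with EBF1-H240A and 1.54 ± 0.07 (2.91-fold, adjusted p = 1.65e-05) with EBF1wt. Its probe covers positions 97306185 to 97306244 of chromosome 8 (mm9, plus strand). Ccl22, a ligand of Ccr4, was well above background on all 6 arrays with an EBF1 protein and on neither Empty array. Its log2 signal was 4.80, 3.90 and 4.92 with EBF1-H240A, 4.03, 4.34 and 3.95 with EBF1wt, and 1.18 and 0.94 with Empty. Set against the lowest signal well above background on the Empty arrays, it was 4.14-fold higher with EBF1-H240A (adjusted p = 0.000184). With EBF1wt it was 3.06-fold higher on that scale (adjusted p = 0.000416). The fold depended on the processing: with EBF1wt the log2 difference was 1.03 in the deposited values and 0.34 with another background correction, both still called. A floor of 16 on the scaled signal lifts every log2 value under 4 to 4, and the differences were then 0.57 with EBF1-H240A and 0.12 with EBF1wt and not called.

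Ccl17, the other ligand of Ccr4, was dim, reading 4.19, 3.65 and 4.13 with EBF1-H240A, 3.28, 3.33 and 4.10 with EBF1wt, and 2.90 and 3.08 with Empty. EBF1wt 3 lay among the EBF1-H240A arrays, and only 1 of the 2 Empty arrays was well above background. The difference from Empty was 1.00 ± 0.28 with EBF1-H240A (adjusted p = 0.0248), at the limit of 2-fold, and 0.58 ± 0.28 with EBF1wt, which was not called (adjusted p = 0.149). The call with EBF1-H240A was lost under 10 of 16 alternatives, among them leaving out EBF1-H240A 1 or 3 or either Empty array. Of 8 tested genes around the group, 1 was called higher and 1 lower with EBF1-H240A, and 2 higher and 2 lower with EBF1wt. The shares of all genes called were 44.6% with EBF1-H240A and 38.4% with EBF1wt. Ciapin1, which adjoins Ccl17, differed by -0.21 with EBF1-H240A (adjusted p = 0.0561) and by -0.23 with EBF1wt (adjusted p = 0.049). Dok4, an adaptor gene a few genes further on, was higher by 1.21 (adjusted p = 4.66e-05) with EBF1-H240A and 1.52 (adjusted p = 2.22e-05) with EBF1wt. Ccdc102a, beyond Dok4, was lower, with differences of -0.63 (adjusted p = 0.000375) with EBF1-H240A and -0.61 (adjusted p = 0.000547) with EBF1wt.

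Among the CXC ligands, Cxcl10 is an interferon-induced ligand of Cxcr3. It read 11.67, 11.17 and 11.36 with EBF1-H240A, 11.06, 11.69 and 11.69 with EBF1wt, and 9.87 and 10.26 with Empty. Arrays with either protein overlapped each other, and all lay above Empty, by 1.34 ± 0.24 (adjusted p = 0.00447) with EBF1-H240A and 1.42 ± 0.24 (adjusted p = 0.0043) with EBF1wt. Of all genes, 21.6% were called higher with EBF1-H240A and 17.2% with EBF1wt. Beside Cxcl10, all 10 genes of a list of interferon response genes (Ifit1, Rsad2, Mx1 and others) were called higher with both proteins. Their summed signal on the linear scale was 37200 to 44000 with EBF1-H240A, 34000 to 43000 with EBF1wt and 19600 to 24900 with Empty. Empty 1, the lower of the Empty arrays for Cxcl10, was also the lower one for this list, and the part of an interferon response in the Cxcl10 difference was not tested.

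Cxcl1, a ligand of Cxcr2 that attracts neutrophils, was near the lower end of detection. Its log2 signal was 3.84, 4.32 and 4.48 with EBF1-H240A, 4.83, 4.35 and 4.88 with EBF1wt, and 3.03 and 3.35 with Empty. Every array with an EBF1 protein lay above both Empty arrays, by 1.02 ± 0.24 (adjusted p = 0.0126) with EBF1-H240A and by 1.50 ± 0.24 (adjusted p = 0.00315) with EBF1wt. Its difference was not called with the floor of 16, where it was 0.27 with EBF1-H240A and 0.69 with EBF1wt, and with another background correction (normexp) it was 0.20 with EBF1-H240A, not called, and 0.32 with EBF1wt. The call with EBF1-H240A was lost without Empty 1 as well.

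Ccl7 and Ccl2 are adjacent genes on chromosome 11 whose products attract monocytes through Ccr2. Ccl7 read 5.73, 5.98 and 6.31 with EBF1-H240A, 6.46, 6.20 and 7.04 with EBF1wt, and 5.52 and 5.48 with Empty. The 3 EBF1wt arrays lay highest and overlapped those with EBF1-H240A, and EBF1wt 3 stood above the rest. Only EBF1wt was called (1.06 ± 0.26, adjusted p = 0.0185), and with EBF1-H240A the difference was 0.50 ± 0.26 (adjusted p = 0.166). Ccl2 averaged 7.58 ± 0.11 with EBF1-H240A, 7.99 ± 0.42 with EBF1wt and 7.12 ± 0.05 with Empty (SD, n = 3, 3 and 2). It was called with EBF1wt (0.87 ± 0.22, adjusted p = 0.0204) and not with EBF1-H240A (0.46 ± 0.22, adjusted p = 0.14). Directly compared, EBF1-H240A minus EBF1wt was -0.56 (95% interval -1.12 to 0) for Ccl7 and -0.42 (-0.89 to 0.05) for Ccl2, and neither difference was called (adjusted p = 0.219 and 0.275). Both calls with EBF1wt were lost when either Empty array was left out. Without EBF1wt 3 the differences from Empty were 0.82 for Ccl7 and 0.63 for Ccl2, and both were still called.

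Cxcl12, the homeostatic ligand of Cxcr4, averaged 6.98 ± 0.11 with EBF1-H240A, 6.98 ± 0.14 with EBF1wt and 6.39 ± 0.04 with Empty. It was higher by 0.59 ± 0.10 with each protein (adjusted p = 0.00352 with EBF1-H240A and 0.00438 with EBF1wt). OP9 cells and other stromal cells are known sources of Cxcl12, Ccl2, Ccl7 and Cxcl1. Of 18 stromal genes listed as markers of the feeder cells, 14 were measured, and Pdgfra, Lum, Thbs1 and Postn were not. Of all genes, 21.6% were called higher with EBF1-H240A and 17.2% with EBF1wt. Among the 14, 8 were called higher with EBF1-H240A and 6 with EBF1wt, and none (0) was called lower. Their summed signal was 2600 to 2680 with EBF1-H240A, 2060 to 2460 with EBF1wt, and 1080 to 1190 with Empty, much of it from Pdgfrb. Their median log2 signal was highest on EBF1wt 3 (5.96). Ccl2 (8.48), Ccl7 (7.04), Cxcl1 (4.88) and Cxcl12 (7.13) were highest on that array too. By summed signal, however, EBF1wt 3 (2460) lay below every EBF1-H240A array. The part of feeder cells in these differences was not tested.

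**Figure D2:**
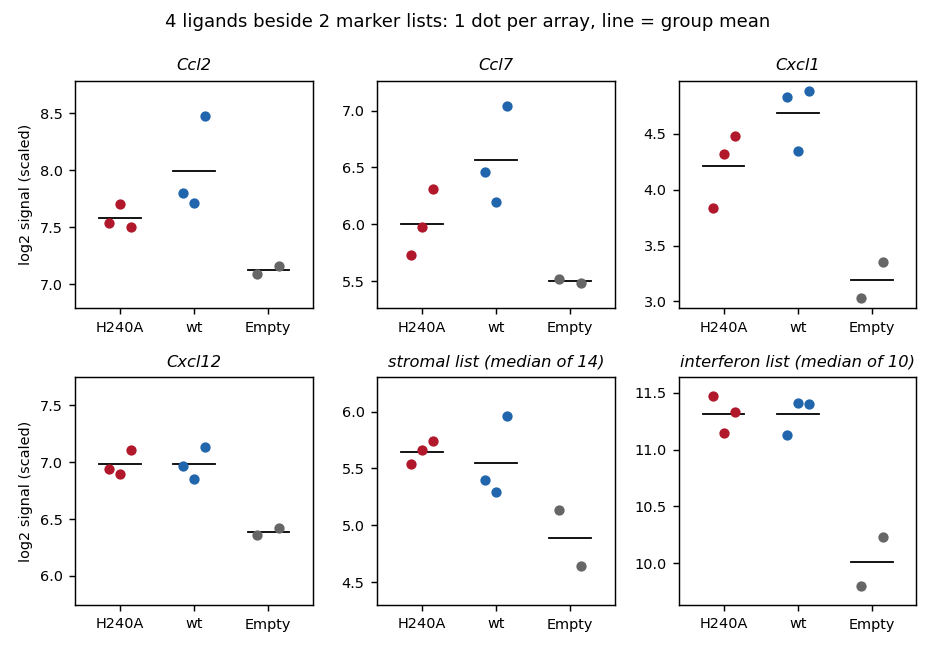
Log2 signals of Ccl2, Ccl7, Cxcl1 and Cxcl12, and the median log2 signal of 14 stromal and 10 interferon response genes, with 1 dot per array and a line at the group mean, for EBF1-H240A, EBF1wt and Empty from left to right. All 6 measures are higher with either EBF1 protein than with Empty, and EBF1wt 3 is the top dot for Ccl2, Ccl7, Cxcl1, Cxcl12 and the stromal list.

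Ccl25, the ligand of Ccr9, was the ligand that fell. It averaged 7.37 ± 0.08 with EBF1-H240A, 7.32 ± 0.05 with EBF1wt and 7.61 ± 0.07 with Empty. The differences were small, -0.23 ± 0.07 (adjusted p = 0.0411) with EBF1-H240A and -0.29 ± 0.07 (adjusted p = 0.0215) with EBF1wt. Leaving out single arrays ended these calls, with EBF1-H240A for 4 of the 5 arrays in that comparison and with EBF1wt for 3 of 5. The other 7 ligands tested were called in no comparison. Their group means ranged from 4.08 to 10.68 with EBF1-H240A, from 4.06 to 10.71 with EBF1wt and from 4.94 to 10.41 with Empty. They were Ccl3 and Ccl4, which attract monocytes and T cells, Xcl1, the T-cell and NK-cell product that binds Xcr1, Ccl1 (Ccr8), Ccl24 (Ccr3), Ccl19 (Ccr7) and Cxcl16 (Cxcr6). Ccl24 gave differences of -0.86 ± 0.35 with EBF1-H240A (adjusted p = 0.0857) and -0.88 ± 0.35 with EBF1wt (adjusted p = 0.0859), and some alternatives called it.

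**Figure D3:**
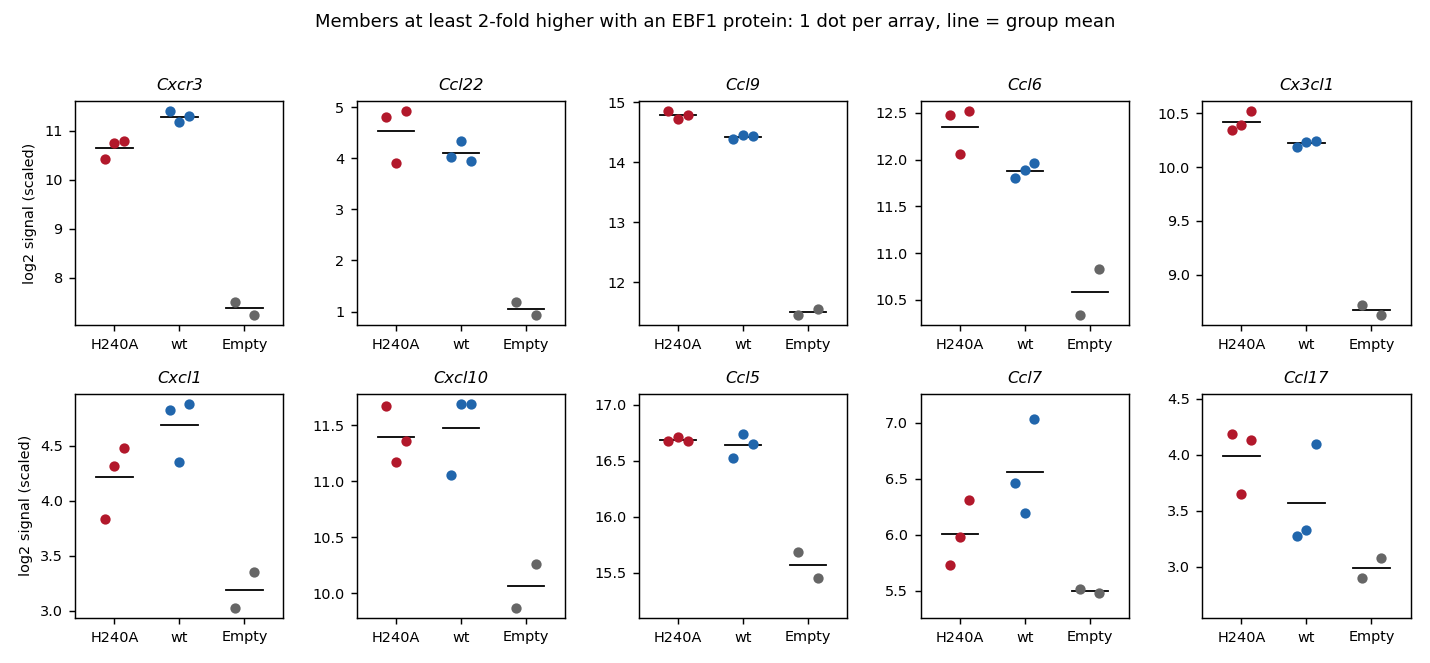
Log2 signals of the 10 genes called at least 2-fold higher with an EBF1 protein, with 1 dot per array and a line at the group mean, for EBF1-H240A, EBF1wt and Empty from left to right, each panel on its own scale. Arrays with an EBF1 protein lie above both Empty arrays in every panel. Ccl22 was not well above background on the Empty arrays.

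Promoter windows of the family were searched for motifs of EBF and of the interferon and NF-kB pathways, which drive many chemokine genes. RefSeq promoters (250 bases before to 50 after the start, GRCm38.p6) were matched by symbol for 40 of the 54 genes, in 44 windows. The EBF consensus (TCCC and GGGA with any 2 bases between) was in 0 of the 44 windows and in 0.904% of all 32851 windows. Its core CCCNNGGG was in 11.4% of the family's windows and 13.7% of all. The interferon element (GAAA repeated after any 2 bases) was in 6.82% of the family's windows and 3.44% of all, and the NF-kB consensus in 25.0% of the family's and 8.46% of all. Both strands were searched, and the core lies within the EBF consensus. Among the 19 called genes with a window, 4 held the NF-kB consensus, and among the 6 tested genes called with neither protein, 2 did. The windows of the 5 called genes that hold any of these motifs are printed so that the letters can be read beside the values, with the matches in capitals. Counted from the start of the gene, Cxcl10 holds the interferon element at -213, an NF-kB match at -159, and overlapping NF-kB matches at -104 and -103 that run into an EBF core at -96. Ccl9 (-35), Ccr6 (-81 and -80) and Cxcl1 (-71 and -70) hold the NF-kB consensus alone, and Cxcr2 an EBF core alone, at -63. A match describes the letters only. The Cxcl10 window is chr5:92348840-92349139 (minus strand), that of Cxcl1 chr5:90890995-90891294 (plus strand), that of Ccl9 chr11:83578587-83578886 (minus strand), that of Ccr6 chr17:8242276-8242575 (plus strand) and that of Cxcr2 chr1:74153744-74154043 (plus strand).
Cxcl10: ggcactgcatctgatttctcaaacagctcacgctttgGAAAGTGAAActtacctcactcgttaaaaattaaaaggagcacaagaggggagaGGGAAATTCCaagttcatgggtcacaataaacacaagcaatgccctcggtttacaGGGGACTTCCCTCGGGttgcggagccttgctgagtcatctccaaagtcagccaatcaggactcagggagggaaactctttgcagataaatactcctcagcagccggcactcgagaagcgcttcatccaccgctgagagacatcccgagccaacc
Cxcl1: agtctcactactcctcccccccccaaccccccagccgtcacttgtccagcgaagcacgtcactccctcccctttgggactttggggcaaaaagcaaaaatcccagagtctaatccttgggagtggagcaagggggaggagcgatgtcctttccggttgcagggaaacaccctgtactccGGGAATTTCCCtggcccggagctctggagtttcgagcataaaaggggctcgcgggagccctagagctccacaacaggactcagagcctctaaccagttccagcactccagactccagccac
Ccl9: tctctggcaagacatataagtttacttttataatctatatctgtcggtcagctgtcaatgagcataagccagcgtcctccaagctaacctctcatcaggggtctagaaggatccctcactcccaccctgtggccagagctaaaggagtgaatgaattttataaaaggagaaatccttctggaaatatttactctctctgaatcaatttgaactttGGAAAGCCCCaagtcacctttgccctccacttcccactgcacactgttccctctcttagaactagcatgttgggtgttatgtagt
Ccr6: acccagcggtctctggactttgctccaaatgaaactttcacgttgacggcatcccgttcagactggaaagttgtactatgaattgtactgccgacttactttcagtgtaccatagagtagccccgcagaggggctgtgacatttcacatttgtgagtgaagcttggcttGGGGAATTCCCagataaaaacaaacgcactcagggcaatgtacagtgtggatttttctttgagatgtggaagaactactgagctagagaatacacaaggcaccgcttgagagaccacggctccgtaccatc
Cxcr2: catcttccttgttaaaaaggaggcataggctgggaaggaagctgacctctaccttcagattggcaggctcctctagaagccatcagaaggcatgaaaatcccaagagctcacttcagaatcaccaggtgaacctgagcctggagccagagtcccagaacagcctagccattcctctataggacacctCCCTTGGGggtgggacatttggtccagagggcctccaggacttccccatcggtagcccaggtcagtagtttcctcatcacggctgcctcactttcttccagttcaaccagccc

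Most of the called receptors were lower, while Cxcr3 and Ccr6 were higher with both proteins and Cxcr2 with EBF1-H240A. Cxcr3 binds Cxcl9, Cxcl10 and Cxcl11 and is best known from effector T cells, plasmacytoid dendritic cells and some B cells. Its log2 signal was 10.43, 10.75 and 10.78 with EBF1-H240A, 11.40, 11.17 and 11.29 with EBF1wt, and 7.51 and 7.24 with Empty. The 3 groups did not overlap. The differences were 3.28 ± 0.14 (9.71-fold, adjusted p = 8.49e-06) with EBF1-H240A and 3.91 ± 0.14 (15.1-fold, adjusted p = 5e-06) with EBF1wt, the widest fitted difference of the 35 genes with EBF1wt. The probe lies on chromosome X at 98926920 to 98926979 in mm9, on the minus strand. Cxcr3's ligand Cxcl10 was higher beside it, while Cxcl9 and Cxcl11 were well above background on none (0) of the arrays.

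Ccr10, a receptor for Ccl27 and Ccl28 in skin and mucosa, read 4.75, 4.65 and 4.41 with EBF1-H240A, 4.84, 4.84 and 4.68 with EBF1wt, and 6.74 and 6.53 with Empty. All 6 arrays with an EBF1 protein lay below both Empty arrays, with differences of -2.04 ± 0.12 (adjusted p = 3.54e-05) for EBF1-H240A and -1.85 ± 0.12 (adjusted p = 6.95e-05) for EBF1wt. With normexp the differences shrank to -1.09 for EBF1-H240A and -1.03 for EBF1wt and were still called. The Ccr10 probe is on chromosome 11 at 101035406 to 101035465 in mm9. Cx3cr1, the receptor of fractalkine on monocytes and some lymphocytes, read 6.58, 5.98 and 6.34 with EBF1-H240A, 6.33, 6.49 and 6.44 with EBF1wt, and 8.08 and 8.38 with Empty. It differed from Empty by -1.92 ± 0.18 (adjusted p = 0.000237) with EBF1-H240A and -1.81 ± 0.18 (adjusted p = 0.000392) with EBF1wt, again without overlap with Empty. Its second probe gave -1.43 with EBF1-H240A and -1.49 with EBF1wt. That probe was dim, well above background on both Empty arrays but on only 2 EBF1-H240A arrays and 1 EBF1wt array.

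Cxcr5 guides B cells and follicular helper T cells to Cxcl13 in the follicle. It read 8.65, 8.80 and 8.66 with EBF1-H240A, 8.30, 8.64 and 8.79 with EBF1wt, and 10.28 and 10.34 with Empty. Both proteins gave values more than 1 log2 unit below Empty on every array, with differences of -1.60 ± 0.14 (adjusted p = 0.000188) with EBF1-H240A and -1.73 ± 0.14 (adjusted p = 0.000169) with EBF1wt. Cxcr6, the receptor of Cxcl16 on innate lymphoid and T cells, read 6.27, 6.11 and 6.32 with EBF1-H240A, 6.32, 6.38 and 6.57 with EBF1wt, and 7.71 and 7.62 with Empty. It was lower on all 6 arrays, with differences of -1.43 ± 0.10 (adjusted p = 6.99e-05) for EBF1-H240A and -1.24 ± 0.10 (adjusted p = 0.000159) for EBF1wt. Ccr4, which binds Ccl17 and Ccl22, read 2.92, 3.50 and 3.29 with EBF1-H240A, 3.35, 4.01 and 4.14 with EBF1wt, and 5.17 and 4.86 with Empty. Arrays with either protein lay below Empty and partly overlapped each other, with differences of -1.78 ± 0.27 (adjusted p = 0.00208) for EBF1-H240A and -1.18 ± 0.27 (adjusted p = 0.014) for EBF1wt. With normexp the Ccr4 differences were -0.39 for EBF1-H240A, still called, and -0.26 for EBF1wt, not called. The call with EBF1wt was also lost without Empty 1. A second Ccr4 probe was well above background on both Empty arrays and on none (0) of the other 6, with means of 0.98 with EBF1-H240A, 2.73 with EBF1wt and 3.97 with Empty.

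Ccr1l1, a receptor-like gene next to Ccr1, was well above background on both Empty arrays and on none (0) of the arrays with an EBF1 protein. It read 2.16, 2.40 and 1.45 with EBF1-H240A, 2.45, 2.76 and 2.11 with EBF1wt, and 4.18 and 3.55 with Empty. Set against the lowest signal well above background on each array, it was 2.50-fold lower with EBF1-H240A (adjusted p = 0.00422). With EBF1wt it was 2.15-fold lower on that scale (adjusted p = 0.0155). The EBF1wt difference was -0.18 with normexp and not called, and its call was lost without Empty 1 as well. With the floor of 16 neither difference was called. The gene lies in a group of receptor genes on chromosome 9 with Ccr9, Cxcr6, Xcr1, Ccr1, Ccr3 and Ccr2. Of these, Xcr1 and Ccr1 were not called with either protein, Ccr3 was not tested, and none (0) of these receptor genes was called higher. Of 4 tested genes of other kinds in and beside the group, 2 were called higher and 1 lower with EBF1-H240A, and 1 higher with EBF1wt. The shares of all genes called were 44.6% with EBF1-H240A and 38.4% with EBF1wt. Fyco1, between Ccr9 and Cxcr6, was higher by 0.53 (adjusted p = 0.00368) with EBF1-H240A and 0.36 (adjusted p = 0.0201) with EBF1wt.

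**Figure D4:**
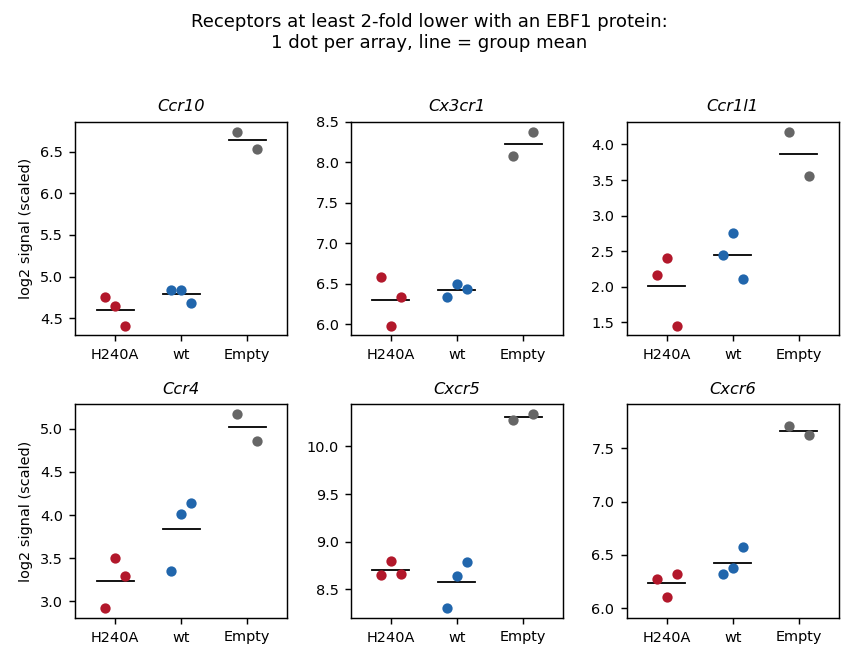
Log2 signals of the 6 receptor genes called at least 2-fold lower with an EBF1 protein, with 1 dot per array and a line at the group mean, for EBF1-H240A, EBF1wt and Empty from left to right, each panel on its own scale. Both Empty arrays lie above all 6 arrays with an EBF1 protein in every panel. Ccr1l1 was not well above background with either protein.

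The remaining receptors changed less. Ccr7, the receptor of Ccl19 and Ccl21, averaged 9.68 ± 0.11 with EBF1-H240A, 9.78 ± 0.07 with EBF1wt and 10.48 ± 0.07 with Empty (SD, n = 3, 3 and 2), with differences of -0.81 ± 0.08 (adjusted p = 0.000399) with EBF1-H240A and -0.70 ± 0.08 (adjusted p = 0.000929) with EBF1wt. Ccr9, the thymus and gut homing receptor for Ccl25, averaged 11.47 ± 0.11 with EBF1-H240A, 11.39 ± 0.09 with EBF1wt and 11.95 ± 0.08 with Empty. It was lower too, with differences of -0.49 ± 0.09 (adjusted p = 0.00473) with EBF1-H240A and -0.57 ± 0.09 (adjusted p = 0.0031) with EBF1wt. Ccr6, the Ccl20 receptor of B cells and mucosal lymphocytes, was the other receptor besides Cxcr3 called higher with both proteins. It averaged 9.11 ± 0.10 with EBF1-H240A, 9.57 ± 0.18 with EBF1wt and 8.76 ± 0.10 with Empty, with differences of 0.35 ± 0.12 (adjusted p = 0.0492) for EBF1-H240A and 0.82 ± 0.12 (adjusted p = 0.00216) for EBF1wt. The difference with EBF1-H240A was not called when any array of the comparison was left out.

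Ccr2, the monocyte receptor for Ccl2 and Ccl7, was called with EBF1wt only. It averaged 12.10 ± 0.13 with EBF1-H240A, 11.78 ± 0.07 with EBF1wt and 12.39 ± 0.12 with Empty, with differences of -0.30 ± 0.10 (adjusted p = 0.0503) for EBF1-H240A and -0.61 ± 0.10 (adjusted p = 0.0036) for EBF1wt. Cxcr4 was called with EBF1-H240A only: -0.31 ± 0.10 (adjusted p = 0.0366), against -0.05 ± 0.10 (adjusted p = 0.716) with EBF1wt. Its means were 8.87 ± 0.06 with EBF1-H240A, 9.13 ± 0.12 with EBF1wt and 9.18 ± 0.13 with Empty, and 10 of 17 alternatives lost the call. A second Cxcr4 probe differed by -0.58 (adjusted p = 0.00273) with EBF1-H240A and -0.26 (adjusted p = 0.0677) with EBF1wt. Passing the threshold with 1 protein and not with the other does not show that the proteins differ, and EBF1-H240A minus EBF1wt was called for neither Ccr2 (0.31 ± 0.09, adjusted p = 0.0924) nor Cxcr4 (-0.26 ± 0.09, adjusted p = 0.134). Ccr1 and Xcr1 were called in no comparison, and their differences from Empty lay between -0.31 and 0.24.

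T and innate lymphoid cells are known to carry Cxcr6, Ccr4, Ccr9, Ccr7, Cxcr5 and Ccr10 in some of their subsets. These receptors were lower with both proteins. Cxcr3 and Ccr6, named above with effector T cells and mucosal lymphocytes, went the other way. Cxcr3 was higher by 3.28 with EBF1-H240A and 3.91 with EBF1wt, and Ccr6 by 0.35 and 0.82. Of all genes, 23.0% were called lower with EBF1-H240A and 21.3% with EBF1wt. In a list of 10 measured genes of T and innate lymphoid cells, 9 (Cd3g, Gata3, Tcf7 and others) were called lower with each protein and none (0) higher. The exception was Cd3e, at 4.33 to 4.50 with EBF1-H240A, 4.05 to 4.92 with EBF1wt, and 4.39 and 4.85 with Empty. The summed signal of the 10 genes was 21100 to 22600 with EBF1-H240A, 21800 to 24300 with EBF1wt, and 39300 and 41000 with Empty. Of 11 mast cell genes listed, 2 were measured, and they were called in opposite directions with each protein. Cpa3 was lower, at 3.07 to 3.32 with EBF1-H240A and 2.99 to 3.74 with EBF1wt, against 6.98 and 6.96 with Empty. Cma1 was higher, at 2.95 to 3.23 with EBF1-H240A and 2.76 to 3.94 with EBF1wt, against 1.09 and 1.65 with Empty. The part of such cells in the receptor differences was not tested. The 7 measured genes of the B-lineage list moved upward, 6 called with EBF1-H240A and 7 with EBF1wt, and Pax5 was not measured. The shares of all genes called higher were 21.6% with EBF1-H240A and 17.2% with EBF1wt.

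Ligands and their receptors did not move as pairs in 1 direction. Cx3cl1 was higher where Cx3cr1 was lower, and Ccl22 was higher where Ccr4 was lower, with either protein. Cxcl10 and Cxcr3 were both higher with either protein, and Ccl25 and Ccr9 both lower. For Cxcl12 and Cxcr4, the ligand was higher with either protein and the receptor was called, lower, with EBF1-H240A.

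The comparison of EBF1-H240A with EBF1wt asks which family members depend on the substituted residue. Of the 35 genes, 3 were called, Ccl9 and Cxcr2 higher and Cxcr3 lower with EBF1-H240A, a share of 8.57% where 6.36% of all genes tested were called (3.64% higher and 2.72% lower). None (0) of the 3 differed 2-fold, where 1.08% of all genes did (0.662% higher and 0.417% lower), and 10 of the 35 had an unadjusted p under 0.05 in limma. Ccl9 was higher by 0.36 ± 0.06 (1.29-fold, adjusted p = 0.0197) and Cxcr3 differed by -0.63 ± 0.12 (adjusted p = 0.0326), with no overlap between the groups in either gene. Both genes were far above Empty with both proteins, as given above. Cxcr2, the neutrophil receptor for Cxcl1, read 7.72, 7.01 and 7.70 with EBF1-H240A, 6.60, 6.68 and 6.27 with EBF1wt, and 6.61 and 6.48 with Empty. The EBF1-H240A arrays lay above all others, and the EBF1wt arrays lay on either side of Empty.

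Cxcr2 was higher with EBF1-H240A than with EBF1wt by 0.96 ± 0.21 (1.94-fold, adjusted p = 0.0464) and than with Empty by 0.93 ± 0.23 (adjusted p = 0.0169), while EBF1wt minus Empty was -0.02 ± 0.23 (adjusted p = 0.95). The call against Empty was lost without either Empty array. A second Cxcr2 probe averaged 5.35 with EBF1-H240A, 4.67 with EBF1wt and 4.21 with Empty. There EBF1-H240A minus EBF1wt was 0.68 and not called (adjusted p = 0.14), and EBF1-H240A minus Empty was 1.13 (adjusted p = 0.00991). Of 11 myeloid genes measured, 3 were called higher and 0 lower with EBF1-H240A against EBF1wt (3.64% and 2.72% of all genes). Against Empty these genes were split, 5 higher and 6 lower with EBF1-H240A (21.6% and 23.0% of all genes). With EBF1wt 3 of them were higher and 5 lower (17.2% and 21.3% of all genes). Their summed signal, much of it from Lyz2, was 39700 to 50700 with EBF1-H240A, 27300 to 34200 with EBF1wt, and 30700 and 37200 with Empty. EBF1-H240A 2 was the lowest of its group for Cxcr2, Ccl6, Ccl9 and this list. It was also the lowest for Cxcl10 (11.17), Ccl22 (3.90) and the interferon list (37200). Within the myeloid list Mpo (7.98) and Prtn3 (11.26) were highest on that array, and most other genes lowest. The part of myeloid cells in these differences was not tested.

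All 3 of these calls were weak against the choice of arrays. Of the 18 alternatives, 9 lost the call of Ccl9, 11 that of Cxcr3 and 13 that of Cxcr2. The number called was 0 when EBF1-H240A 1, EBF1-H240A 3 or any of the 3 EBF1wt arrays was left out, and 4 without EBF1-H240A 2. Calls over all genes fell as well. They went from 1038 to 448 without EBF1-H240A 1, 449 without EBF1-H240A 3, 365, 441 and 683 without EBF1wt 1, 2 and 3, and 839 without EBF1-H240A 2. Over the 18 alternatives the differences ranged from 0.33 to 0.41 for Ccl9, from -0.70 to -0.52 for Cxcr3 and from 0.68 to 1.26 for Cxcr2. For other members the 95% interval of EBF1-H240A minus EBF1wt was -0.16 to 0.24 for Ccl5, 0.04 to 0.35 for Cx3cl1, -0.45 to 0.08 for Ccr10, -0.17 to 0.43 for Cxcr5 and -0.22 to 0.22 for Cxcl12. It was wider for dim genes, -0.21 to 1.08 for Ccl22 and -1.17 to -0.02 for the brighter Ccr4 probe. On the second Ccr4 probe EBF1-H240A read lower than EBF1wt with an adjusted p of 0.0478 in limma over all probes, but neither protein's arrays were well above background there, so no difference is given. Ccr6 came closest to a further call, with -0.46 ± 0.11 (adjusted p = 0.053).

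**Figure D5:**
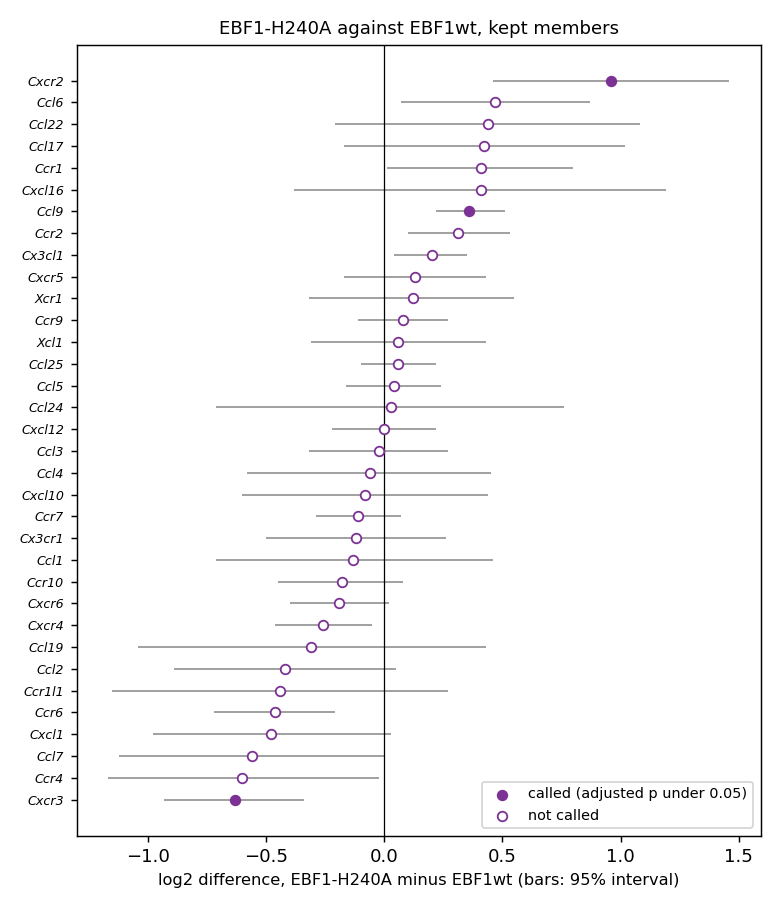
Fitted log2 difference of EBF1-H240A minus EBF1wt for 34 of the 35 tested genes, with the 95% interval as a bar and filled points where called. Cxcr2 and Ccl9 lie right of 0 and Cxcr3 left of it, and the other intervals are drawn around open points between -0.60 and 0.47.

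The 8 arrays were spread over 2 slides, each with arrays of all 3 groups. Slide 1 held EBF1-H240A 1 and 2, EBF1wt 2 and Empty 1, and slide 2 held EBF1-H240A 3, EBF1wt 1 and 3, and Empty 2. Within slide 1 and within slide 2, all 22 members called with EBF1-H240A and all 22 called with EBF1wt kept the sign of their difference from Empty. The calls came from these same arrays, so the shared sign is not a separate check. Each slide had 4 arrays, only 1 of them Empty, and 1 residual degree of freedom. There limma called fewer of the members with either protein than on all 8 arrays, and calls over all genes fell as well. Ccl9 was 3.33 and 3.22 above Empty with EBF1-H240A within slides 1 and 2, and 2.99 and 2.84 with EBF1wt. Cxcr3 was 3.08 and 3.55 above Empty with EBF1-H240A, and 3.66 and 4.11 with EBF1wt. For Cxcr2, EBF1-H240A minus EBF1wt was 0.68 within slide 1 and 1.26 within slide 2. With the slide as a block in the fit, the counts were 22 with EBF1-H240A, 23 with EBF1wt and 1, Ccl9, between the proteins.

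Genes that work around chemokine receptors were counted from a list of 60 with a probe, of which 54 were tested. With EBF1-H240A 16 were called higher and 11 lower (50%, against 44.6% of all genes), and with EBF1wt 12 higher and 16 lower (51.9%, against 38.4%). Between the proteins 7 were higher and 1 lower with EBF1-H240A (14.8%, against 6.36%). Leaving out either Empty array leaves 1, and fewer of the 28 were then called with EBF1wt, as were fewer of all genes. The count of 8 between the proteins was 1 to 4 when any array of that comparison was left out. Calls over all genes then fell from 1038 to between 365 and 839. Grk5, a kinase that helps to switch off active receptors, averaged 6.58 with EBF1-H240A, 6.05 with EBF1wt and 3.96 with Empty. It was higher than with Empty by 2.62 ± 0.12 (adjusted p = 1.29e-05) with EBF1-H240A and 2.10 ± 0.12 (adjusted p = 4.21e-05) with EBF1wt. With normexp these differences were 1.01 with EBF1-H240A and 0.73 with EBF1wt, both still called. Rasgrp2, the exchange factor that activates Rap1 for integrin adhesion, was higher by 1.89 ± 0.12 (adjusted p = 5.26e-05) with EBF1-H240A and 1.94 ± 0.12 (adjusted p = 5.85e-05) with EBF1wt.

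The RGS proteins, which shorten G-protein signals, went both ways. Rgs10 was lower, with differences of -1.78 ± 0.10 with EBF1-H240A (adjusted p = 2.44e-05) and -1.73 ± 0.10 with EBF1wt (adjusted p = 3.35e-05). Rgs2 was higher by 1.06 ± 0.13 (adjusted p = 0.000691) with EBF1-H240A and 1.04 ± 0.13 (adjusted p = 0.000969) with EBF1wt. Rgs3 was higher by 1.41 ± 0.09 with EBF1-H240A and 0.92 with EBF1wt, and differed between the proteins by 0.49 (adjusted p = 0.0208), a call that 9 of 18 alternatives lost. Plcb2, a phospholipase downstream of Gi-coupled receptors, averaged 10.14 with EBF1-H240A, 9.37 with EBF1wt and 8.90 with Empty, and was higher with EBF1-H240A than with EBF1wt by 0.78 (adjusted p = 0.0032). Pik3r6, a regulatory subunit of the PI3-kinase that receptors of this kind activate, was higher by 1.15 ± 0.12 (adjusted p = 0.000354) with EBF1-H240A and 0.84 (adjusted p = 0.00172) with EBF1wt. Rgs16 was dim and well above background on 2 of the 3 EBF1-H240A arrays and on no array of the other groups, so its difference from Empty (adjusted p = 0.024) is given no fold.

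The other 19 genes of the family had no probe well above background on 2 arrays and were not tested. They were the ligands Ccl8, Ccl11, Ccl12, Ccl20, Ccl21a, Ccl27a, Ccl28, Cxcl2, Cxcl3, Cxcl5, Cxcl9, Cxcl11, Cxcl13, Cxcl14, Cxcl15 and Cxcl17 and the receptors Ccr3, Ccr8 and Cxcr1. Of these, 17 were well above background on no array, and their log2 signals lay between 0 and 3.32. Ccr3 and Ccr8 were well above background on 1 Empty array each. Ccr8, a receptor of T-helper and innate lymphoid cells, read 0.34, 0.34 and 1.89 with EBF1-H240A, 0.70, 0.51 and 0.92 with EBF1wt, and 2.15 and 3.05 with Empty, so that both Empty arrays were highest. Cxcl13, the ligand of Cxcr5, and Ccl20, the ligand of Ccr6, were thus not detected in any group, nor were Ccl27a and Ccl28, the ligands of Ccr10.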

How the data were processed

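Scanner output of 8 one-colour arrays was used; the submitters' processing notes name Agilent Feature Extraction 10.5.1.1. Per the file headers, each spot has a processed signal (a linear intensity from which a spatial trend was subtracted, or a surrogate where the spot did not exceed background), mean and background intensities, and flags of 0 or 1. The deposited value table holds log2 values with medians of 4.90 to 4.93, correlated with the scanner values at r = 0.971 to 0.979. Its normalization and centring are not given in the sources used here, and it served only as an alternative.

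Intensities were scaled to a common 75th percentile (232 to 326 before scaling), set to at least 1, log2-transformed and averaged per probe without outlier spots. Probes well above background on at least 2 arrays were kept (25008), 24 with a missing value were left out of the fit, and names were updated with GRCm38.p6. The 3 groups shared 1 limma 3.58.1 fit (R 4.3.3, lmFit and eBayes, no covariate, 5 residual and 1.80 prior degrees of freedom). Where no array of a group exceeded background, the bright group's mean was set against the mean, over the dim group's arrays, of the higher of its signal and the lowest signal well above background. On simulated data with 16310 genes (EBF1wt against Empty), 68% of changes of 1 log2 unit and 84% of changes of 2 were recovered, with 10 false calls. The simulation changed 100 genes by each size, while 6264 were called in the real comparison, so these rates need not hold there. The members, lists and the rule for naming genes were chosen with earlier results of these data known. Of the tested receptors, 1 entered the fit and the counts and is not reported here by name. The other members were accounted for: those called with at least 2-fold with every array's value, other called members with group means, uncalled members by ranges, unmeasured ones by name. Of the pathway list, at most 8 called genes with at least 2-fold were named. Marker lists of dendritic cells, hepatocytes, c-Kit-positive progenitors and NF-kB feedback genes were also measured. Of all genes, 21.6% were called higher and 23.0% lower with EBF1-H240A, and 17.2% higher and 21.3% lower with EBF1wt. Dendritic cell genes had 6 of 8 measured, 2 higher and 4 lower with EBF1-H240A and 3 higher and 3 lower with EBF1wt. Of the 6 progenitor genes, 0 were higher and 5 lower with EBF1-H240A, and 1 was higher and 4 lower with EBF1wt. Of 6 hepatocyte genes 1 was measured, lower with both proteins, and of 7 NF-kB feedback genes 3 were higher and 1 lower with EBF1-H240A, and 1 higher and 2 lower with EBF1wt.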

Additional observations from a re-analysis of the deposited data

How the results depend on the processing

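The number of family members called was tested against other normalizations, background corrections, filters, floors and probe rules, fits on fewer arrays, the slide, and leaving out each array. With EBF1-H240A against Empty (22) it stayed between 16 and 22, except within slides 1 and 2, where it was 8 and 3. With EBF1wt against Empty (22) it stayed between 18 and 23, except within slides 1 and 2, where it was 1 and 4. Leaving out single arrays gave 16 to 20 with EBF1-H240A and 18 to 22 with EBF1wt. With EBF1-H240A against EBF1wt (3) it was 1 with the slide as a block and 0 with no filter on dim probes (8 members at an unadjusted p under 0.05 in limma), within slide 1 (1 such member) and within slide 2 (6). Leaving out single arrays gave 0 to 4, with 7 to 10 members at an unadjusted p under 0.05 where the count was 0. Over all genes, leaving out single arrays cut the calls between the proteins from 1038 to between 365 and 839. Fits within a slide had 4 arrays and 1 residual degree of freedom, and calls over all genes fell there too.

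Arrays with the same replicate number did not deviate together: the correlations of their deviations from the group means ran from -0.33 to 0.19, so the numbers were not taken to pair the arrays. With the replicate number as a block the counts were 21 with EBF1-H240A, 22 with EBF1wt and 0 between the proteins (10 at an unadjusted p under 0.05), and for the pathway list 26, 22 and 1.

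The pathway list (27 called with EBF1-H240A, 28 with EBF1wt, 8 between the proteins) gave 3 and 0 with EBF1-H240A within slides 1 and 2 (22 and 12 at an unadjusted p under 0.05), and 22 to 24 without single arrays. With EBF1wt it gave 16 with no filter, 0 and 1 within the slides (13 at an unadjusted p under 0.05 in each), and 15 to 25 without single arrays. Between the proteins it gave 4 with the deposited value table, 1 with no filter, 5 with only the 2 groups compared, 2 with the slide as a block, 0 and 0 within the slides (4 and 3 at an unadjusted p under 0.05), and 1 to 4 without single arrays. Calls over all genes fell as well within the slides and when single arrays of a comparison were left out. The causes were not tested.

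No called difference of a family member or a named pathway gene changed sign under any alternative. All alternatives used the arrays that gave the calls, so this is not a separate check. Against Empty, the calls of Ccl17, Ccr6, Cxcr4 and Rgs16 with EBF1-H240A were each lost under 10 alternatives, and that of Ccl25 under 9 with EBF1-H240A and 6 with EBF1wt. Between the proteins, the Grk5 call was lost under 13 and the Rgs3 call under 9. The size of the differences of Ccl22, Cxcl1, Ccr1l1, Ccl17, Ccr4 and Rgs16 depends on the floor and the background correction, and that of Ccr10, Ccl7, Cxcl12 and Grk5 on the background correction.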
